A study of Mus musculus with 12 samples.

Results

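The 10 genes described here encode proteins that let leukocytes leave the blood and settle in tissue. They are 6 ligands listed as vessel and stroma molecules (Madcam1, Icam1, Icam2, Vcam1, Sele and Selp) and 4 integrin chains carried by leukocytes (Itga4, Itgb7, Itgal and Itgae). The ligands are not confined to vessel and stromal cells, and which cells carried their RNA was not tested. The 10 genes were taken as the rows of the count tables whose gene identifier is one of these names. All 10 were found among 23329 rows. RNA sequencing of spleen and duodenum was compared in 4 groups of 3 libraries, 12 in all. Every library came from wild type C57BL/6J mice aged 2 months, and each mouse had been given AC H6 or an isotype control antibody, as 100 ul of a 1 mg/ml solution, 24 hours earlier. AC H6 is an activating antibody against the receptor LTbR (lymphotoxin beta receptor). Whether the libraries within a group stem from different animals is not stated in the labels, and p-values therefore reflect library-to-library spread, part of which may be technical. In bulk tissue, a change in the number of cells of a type and a change in RNA per cell cannot be told apart.

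Leukocytes first roll on selectins, then stop when activated integrins bind ligands of the immunoglobulin family on the vessel wall. MAdCAM-1 is the gut addressin, bound by the integrin made of the Itga4 and Itgb7 chains. VCAM-1 is bound mainly by the pair of Itga4 and Itgb1, ICAM-1 and ICAM-2 by the pair of Itgal and Itgb2 (LFA-1), and E-cadherin on epithelium by the pair of Itgae and Itgb7. The lymphotoxin beta receptor sits on stromal, endothelial and myeloid cells, signals through classical and alternative NF-kB, and is known for its part in building lymphoid tissue and for inducing addressins there.

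Promoter sequence is shown for Madcam1, Icam1 and Selp, 3 ligand genes that were higher in the duodenum after AC H6. Each sequence is the 250 bases before the RefSeq gene start on the plus strand of build GRCm38.p6, read 5′ to 3′, with matches to GGAAANNCC in capitals together with the last base of each longer kappaB consensus match in Madcam1.
Madcam1, chr10:79664309-79664558: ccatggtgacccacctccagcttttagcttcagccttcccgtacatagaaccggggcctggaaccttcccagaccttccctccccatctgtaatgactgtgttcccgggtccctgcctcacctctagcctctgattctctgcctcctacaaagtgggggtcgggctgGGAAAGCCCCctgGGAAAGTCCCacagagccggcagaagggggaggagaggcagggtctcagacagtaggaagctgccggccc
Icam1, chr9:21015690-21015939: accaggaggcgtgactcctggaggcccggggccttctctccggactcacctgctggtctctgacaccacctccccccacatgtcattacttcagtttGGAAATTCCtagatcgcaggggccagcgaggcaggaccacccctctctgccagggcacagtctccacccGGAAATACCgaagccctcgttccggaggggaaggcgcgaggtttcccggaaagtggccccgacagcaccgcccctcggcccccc
Selp, chr1:164115014-164115263: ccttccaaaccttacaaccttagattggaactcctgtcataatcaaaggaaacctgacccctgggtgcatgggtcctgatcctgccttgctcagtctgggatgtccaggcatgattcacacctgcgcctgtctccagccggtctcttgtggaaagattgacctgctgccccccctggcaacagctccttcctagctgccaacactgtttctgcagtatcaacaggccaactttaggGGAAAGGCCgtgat

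The kappaB consensus, a binding motif of NF-kB, was searched on both strands over its 10 bases, and among 6 members with a RefSeq promoter entry (Madcam1, Icam1, Sele, Selp, Itga4 and Itgb7) it matched in Madcam1 alone. Its 2 matches there lie on the minus strand at -83 to -74 and -70 to -61 from the gene start, reading GGGGCTTTCC and GGGACTTTCC, and both overlap matches to GGAAANNCC on the other strand. Of 32851 promoter entries of the same length, 1281 (3.9%) hold the consensus. The looser pattern GGAAANNCC was chosen after the promoters had been read, so its matches are a description only. It matched 2 sites in Icam1 (GGAAATTCC at -153 to -145 and GGAAATACC at -84 to -76), 1 in Selp (GGAAAGGCC at -14 to -6) and 2 in Madcam1, against 1619 of all entries (4.93%). The STAT-type pattern TTCNNNGAA, also searched on both strands, was present once in Icam1 and once in Sele and in 2306 entries (7.02%). Vcam1, Icam2, Itgal and Itgae had no entry.

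Library totals ran from 13874091 to 45847467 counts. The labelled tissues were checked against marker genes: the summed level of 10 enterocyte markers (in CPM, the read count scaled to library depth) was 31914 to 36802 CPM in duodenum and 38.9 to 52.0 CPM in spleen, while 10 B cell markers summed to 2760 to 3791 CPM in spleen and 13.9 to 20.2 CPM in duodenum. The labels' extraction text speaks of brains, and 8 brain markers summed to 47.6 to 61.4 CPM in duodenum and 77.5 to 89.7 CPM in spleen. CPM values below are scaled by TMM over all 12 libraries. Haemoglobin genes took 7.59% to 19.0% of the spleen isotype counts and 15.7% to 28.3% after AC H6. The ribosomal row Rn45s took 7.56% of duodenum isotype library 1. Amylase 2 genes took 8.64% of duodenum AC H6 library 3, 0.745% of AC H6 library 2 and 2.13% of isotype library 2. Summed pancreatic acinar markers were as uneven in duodenum, at 27.5 to 9645 CPM with isotype and 32.7 to 37873 CPM with AC H6.

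In the duodenum 6 of the 9 members tested were higher after AC H6 and none was lower, at a Benjamini-Hochberg adjusted p under 0.05 in edgeR's quasi-likelihood test. Of all 15667 genes tested there, 34.6% passed in either direction, 18.5% higher and 16.1% lower. The median log2 change of the tested members was 0.69, beside 0.01 over all genes. At an unadjusted p under 0.05, 6 members passed as well. The members and the gene lists below were chosen with earlier results of these data known. Their counts and medians are therefore a description only.

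Madcam1 (chr10:79664559-79668537, plus strand; this and later gene positions are on GRCm38) had, after Icam1, the steepest rise among the 9 members tested in duodenum, at rank 96 of all 15667 genes by log2 change. It stood at 2.31, 3.11 and 2.52 CPM in the isotype libraries (45, 90 and 64 counts) and at 12.6, 10.6 and 11.002 CPM after AC H6. All 3 treated libraries lay above all 3 controls, without overlap. The share of all genes without overlap is not given, in either tissue. This and later statements on overlap are therefore a description only. The means were 2.65 ± 0.417 and 11.4 ± 1.09 CPM (SD, n = 3 libraries each), a 4.33-fold rise (log2 2.12 ± 0.13 SE, 95% interval 1.81 to 2.42, adjusted p = 2.71e-05 in edgeR).

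Icam1 (chr9:21015985-21028817, plus strand), the ligand of LFA-1, had the steepest change among the members. Its libraries gave 9.64, 9.82 and 10.8 CPM with isotype and 52.2, 51.4 and 51.4 CPM with AC H6. The replicates of each group lay within a narrow band, far apart from the other group. The rise was 5.19-fold (log2 2.38 ± 0.06 SE, 95% interval 2.24 to 2.51, edgeR adjusted p = 2.26e-07), the fourth smallest p of the table.

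Vcam1 (chr3:116109949-116129688, minus strand), which anchors leukocytes bearing Itga4 and is also made by splenic macrophages and stroma, measured 16.8, 16.04 and 15.5 CPM with isotype and 35.3, 37.2 and 38.0 CPM with AC H6. The groups did not overlap, and the level rose 2.32-fold (log2 1.22 ± 0.06 SE, 95% interval 1.08 to 1.35, edgeR adjusted p = 6.78e-06). Selp (chr1:164115264-164150026, plus strand), P-selectin of platelets and endothelium, measured 1.44, 1.38 and 1.85 CPM with isotype and 3.73, 2.86 and 3.00 CPM with AC H6. It rose 2.09-fold (log2 1.06 ± 0.18 SE, 95% interval 0.64 to 1.48, edgeR adjusted p = 0.00333), again with no overlap.

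Icam2 (chr11:106377656-106388075, minus strand), a second LFA-1 ligand found on resting endothelium, did not pass. Its isotype libraries gave 2.56, 3.60 and 2.71 CPM and its AC H6 libraries 4.12, 3.37 and 3.49 CPM, which overlap (log2 difference 0.32 ± 0.17 SE, 95% interval -0.06 to 0.70, edgeR adjusted p = 0.168). Sele (chr1:164048234-164057677, plus strand), E-selectin of inflamed endothelium, was at the edge of detection, with 3, 7 and 1 counts in the isotype libraries and 9, 0 and 9 counts after AC H6. It was left out of the duodenum test for low counts, and without that filter its difference was log2 0.31 ± 0.84 SE (edgeR adjusted p = 0.830), so a change was not detectable at this depth.

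**Figure D1:**
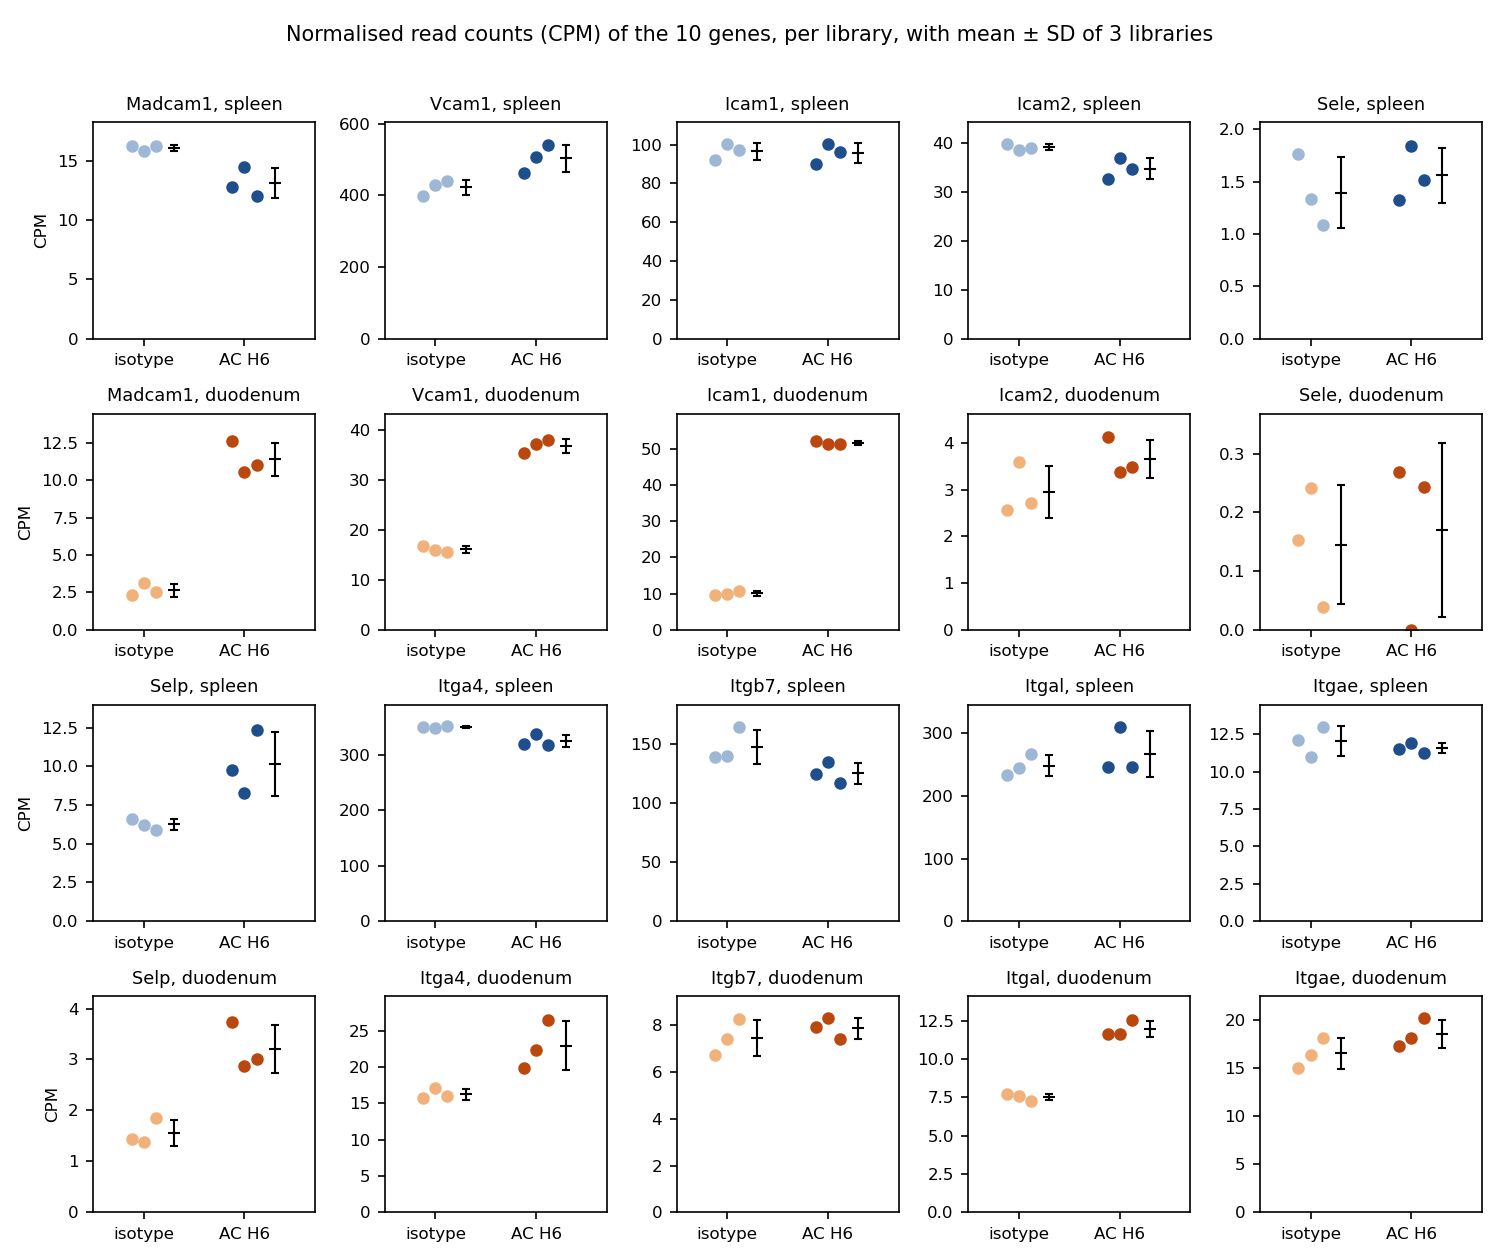
Normalised read counts (CPM) of each member in every library, on linear axes that start at 0, with a separate panel for spleen and duodenum; points are libraries and the black mark is the mean ± SD of 3 libraries. In duodenum the Madcam1, Icam1, Vcam1, Selp, Itga4 and Itgal points with AC H6 all lie above the isotype points.

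Among the integrin chains, Itgal (chr7:127296260-127335138, plus strand), the alpha chain of LFA-1, gave 7.69, 7.57 and 7.27 CPM with isotype and 11.7, 11.6 and 12.5 CPM with AC H6 in the duodenum. Without overlap between groups, it rose 1.62-fold (log2 0.69 ± 0.08 SE, 95% interval 0.50 to 0.88, edgeR adjusted p = 6.27e-04). Itga4 (chr2:79255426-79333123, plus strand), the chain shared by the MAdCAM-1 and VCAM-1 receptors, gave 15.7, 17.0 and 15.96 CPM with isotype and 19.8, 22.4 and 26.5 CPM with AC H6. It rose 1.43-fold (log2 0.52 ± 0.11 SE, 95% interval 0.28 to 0.76, edgeR adjusted p = 0.0067), the smallest rise of the 6.

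The chains Itgb7 and Itgae, which pair with each other, did not pass. Itgb7 (chr15:102215995-102231944, minus strand) measured 6.72, 7.43 and 8.26 CPM with isotype and 7.92, 8.30 and 7.41 CPM with AC H6, with overlapping groups (log2 difference 0.09 ± 0.11 SE, 95% interval -0.15 to 0.34, edgeR adjusted p = 0.536). Itgae (chr11:73090583-73147446, plus strand), which holds lymphocytes in the epithelium, measured 15.03, 16.4 and 18.2 CPM with isotype and 17.3, 18.2 and 20.2 CPM with AC H6, which overlap (log2 difference 0.19 ± 0.09 SE, 95% interval -0.02 to 0.40, edgeR adjusted p = 0.149). Neither interval reaches the change of Itgal.

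Markers of several cell types moved with these genes in the duodenum, and their part in the result was not tested. All 7 tested macrophage and monocyte markers were higher, with summed levels of 163 to 173 CPM against 287 to 307 CPM. Of 8 neutrophil markers 5 were higher and 1 lower, and of 12 blood endothelium markers 5 were higher and 1 (Emcn) lower. Of 10 reticular stroma markers 6 were higher (Ccl19, Cxcl13, Col1a1, Col3a1, Des and Tnfsf11), while Pdpn, Pdgfra, Pdgfrb and Cr2 did not pass. Ccl19 and Cxcl13 are also counted among the homing chemokines below. The summed blood endothelium level went from a range of 322 to 362 CPM to 373 to 400 CPM, a ratio of means of 1.13. That ratio was 1.77 for macrophage and monocyte markers, 1.81 for neutrophil markers and 1.34 for reticular stroma markers. It was 3.19 for the 6 ligands together, a sum led by Icam1 (10.1 and 51.6 CPM) and Vcam1 (16.1 and 36.8 CPM). In the neutrophil sum, with means of 59.4 and 107 CPM, Mmp9 alone went from 26.9 to 64.4 CPM. T cell markers had 3 of 10 higher (Cd3e, Cd4 and Lck), with sums of 48.8 to 51.3 CPM and 58.1 to 61.9 CPM, beside a ratio of 1.28 for the 4 integrin chains. Intraepithelial lymphocyte markers, listed because such cells carry Itgae, had 1 of 9 higher. Enterocyte markers had 2 of 10 higher and 6 lower, with sums of 35421 to 36802 CPM with isotype and 31914 to 33606 CPM with AC H6. Other lists moved less: smooth muscle markers had 1 of 6 higher (Des, also counted above) and 1 lower, with a ratio of means of 0.98. Plasma cell markers had 1 of 5 lower (ratio 0.94), and B cell markers 1 of 9 higher (ratio 1.29). In the lists of this paragraph no marker was at 0 in all 3 libraries of a duodenum group.

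**Figure D2:**
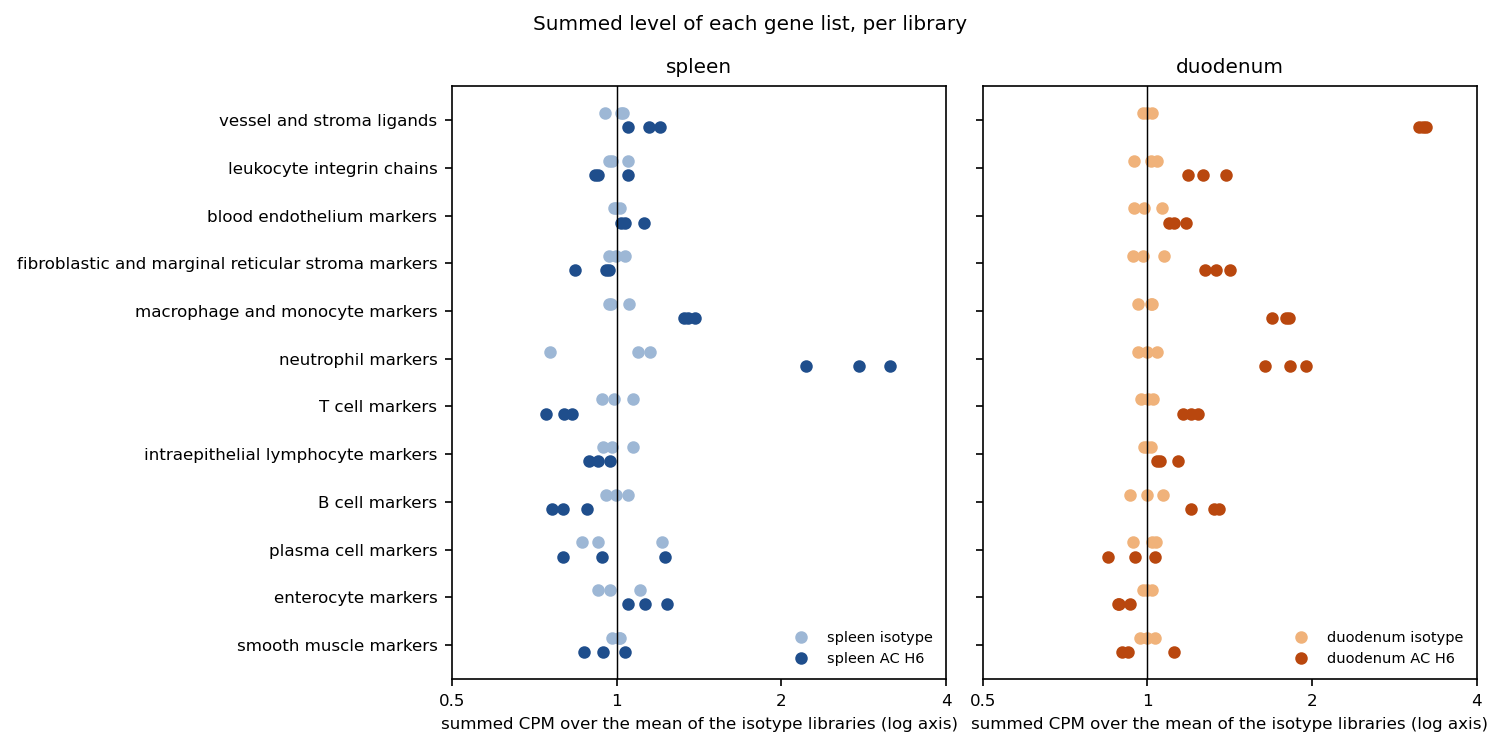
Summed CPM of the ligand members, the integrin members and cell type marker lists in each library, divided by the mean of the isotype libraries of the same tissue, on a log axis. In duodenum the ligand sum lies at 105 to 108 CPM with AC H6 and 32.9 to 34.2 CPM with isotype, a ratio of means of 3.19.

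In the spleen 1 of 10 members, Selp, passed the same test, where 3.98% of 15270 genes passed, 2.06% higher and 1.92% lower. Of the 608 genes called there, 51.8% were higher, or 34.8% of 676 with upper quartile scaling. The members' median log2 difference was -0.03, beside 0.00 over all genes. Selp gave 6.59, 6.23 and 5.92 CPM with isotype and 9.73, 8.29 and 12.4 CPM with AC H6, without overlap. It rose 1.62-fold (log2 0.69 ± 0.15 SE, 95% interval 0.35 to 1.04, edgeR adjusted p = 0.0493), a call close to the threshold. It was lost in 9 of 15 alternatives run, with adjusted p between 0.00159 and 0.142 over them. Of the single libraries, leaving out any but AC H6 library 2 ended the call, with log2 changes of 0.54 to 0.73 and edgeR adjusted p of 0.118 to 0.142.

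Markers of platelets and their precursors, which store P-selectin, moved beside Selp in the spleen: 3 of 8 passed and were higher, with summed levels of 227 to 298 CPM with isotype and 359 to 519 CPM with AC H6. Pf4, a platelet chemokine, was among them (log2 0.89 ± 0.14 SE). Blood endothelium markers summed to 604 to 620 CPM and 622 to 685 CPM, with 1 of 12 (Plvap) higher. The part of these cells in the Selp result was not tested.

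Vcam1 in the spleen measured 398, 429 and 439 CPM with isotype and 463, 506 and 540.1 CPM with AC H6, and Madcam1 16.3, 15.8 and 16.2 CPM against 12.8, 14.5 and 12.04 CPM. Both sets of groups do not overlap, yet neither passed: the log2 differences were 0.26 ± 0.07 SE (edgeR adjusted p = 0.0859) for Vcam1 and -0.29 ± 0.08 SE (edgeR adjusted p = 0.0937) for Madcam1. Without AC H6 library 2, Madcam1 passed as lower (log2 -0.37, edgeR adjusted p = 0.0460). Madcam1 in spleen marks the marginal sinus lining. Of 9 macrophage and monocyte markers in spleen 6 were higher. They summed to 1059 to 1151 CPM with isotype and 1450 to 1519 CPM with AC H6, and their part in the Vcam1 values was not tested.

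Icam1 in the spleen was 92.1, 101 and 97.2 CPM with isotype and 90.0, 100.3 and 96.4 CPM with AC H6, overlapping groups with a log2 difference of -0.01 ± 0.06 SE (edgeR adjusted p = 0.913). Icam2 gave 39.8, 38.5 and 38.9 CPM against 32.5, 36.8 and 34.6 CPM, which do not overlap (log2 -0.17 ± 0.06 SE, edgeR adjusted p = 0.129). Sele gave 1.76, 1.33 and 1.09 CPM against 1.32, 1.84 and 1.52 CPM (log2 0.21 ± 0.22 SE, edgeR adjusted p = 0.561). None of the 3 passed.

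The integrin chains of the spleen also did not pass. Itga4 was 349.6, 348 and 353 CPM with isotype and 320.1, 338 and 317 CPM with AC H6 (log2 -0.10 ± 0.05 SE, edgeR adjusted p = 0.237), and Itgb7 139, 139.7 and 164 CPM against 124, 135 and 117 CPM (log2 -0.23 ± 0.09 SE, edgeR adjusted p = 0.149). These pairs of groups do not overlap, and the treated libraries are lower. Without the share of all spleen genes that do not overlap, such separation in genes that did not pass has no baseline. Itgal (log2 0.11 ± 0.10 SE, edgeR adjusted p = 0.522) and Itgae (log2 -0.05 ± 0.09 SE, edgeR adjusted p = 0.733) overlapped. Summed T cell markers were 664 to 756 CPM with isotype and 525 to 584 CPM with AC H6, with 4 of 10 lower, and B cell markers 3463 to 3791 CPM and 2760 to 3199 CPM, with 2 of 10 lower; their part was not tested.

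**Figure D3:**
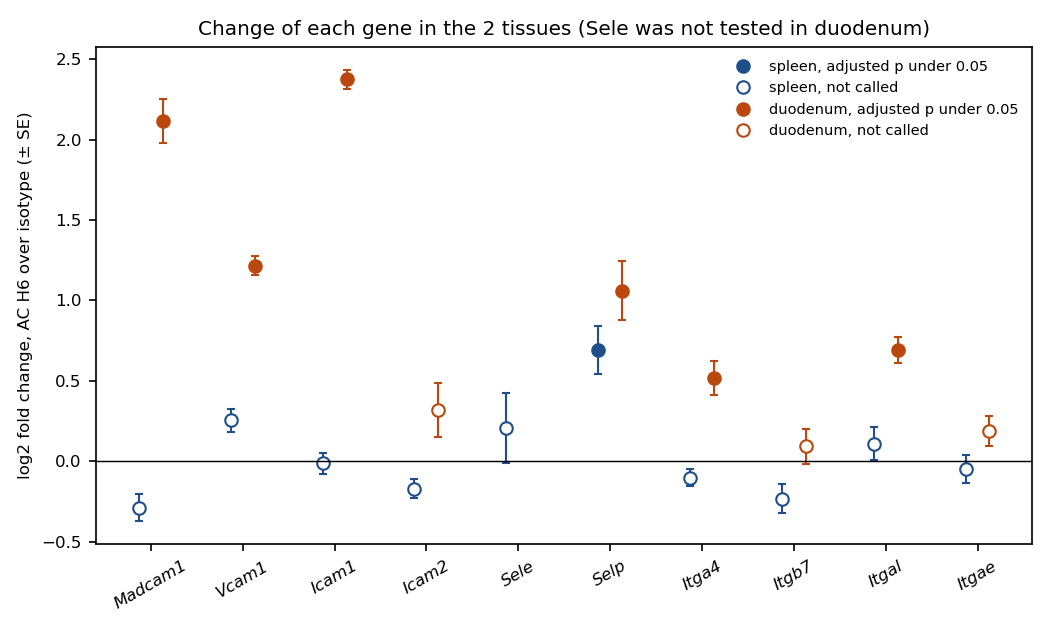
Log2 fold change of each member with AC H6 over isotype in spleen and duodenum, with SE from edgeR; filled points passed an adjusted p of 0.05, open points did not, and Sele has no tested value in duodenum. Icam1 stands at 2.38 in duodenum and at -0.01 in spleen.

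Whether the response differed between tissues was tested as the interaction of tissue and treatment in 1 fit of all 12 libraries, which uses the same isotype libraries as the comparisons above. For 5 of 10 members the duodenum change exceeded the spleen change, where 20.0% of 16655 genes passed in either direction, 10.9% higher and 9.13% lower. Of the 3331 genes called, 54.3% were higher, or 72.8% with upper quartile scaling. The differences in log2 change were 2.39 ± 0.16 SE for Madcam1 (edgeR adjusted p = 2.87e-06), 2.37 ± 0.09 SE for Icam1 (2.28e-08), 0.94 ± 0.09 SE for Vcam1 (5.13e-05), 0.60 ± 0.12 SE for Itga4 (0.00509) and 0.56 ± 0.13 SE for Itgal (0.0104). The members that did not pass were Icam2 (0.46 ± 0.15 SE, adjusted p = 0.0521), Selp (0.35 ± 0.25 SE, 0.356), Itgb7 (0.31 ± 0.13 SE, 0.122), Itgae (0.22 ± 0.13 SE, 0.258) and Sele (0.09 ± 0.80 SE, 0.962). So for Selp, which was called in both tissues, a difference between tissues was not detected, with a 95% interval of the difference from -0.19 to 0.88.

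**Figure D4:**
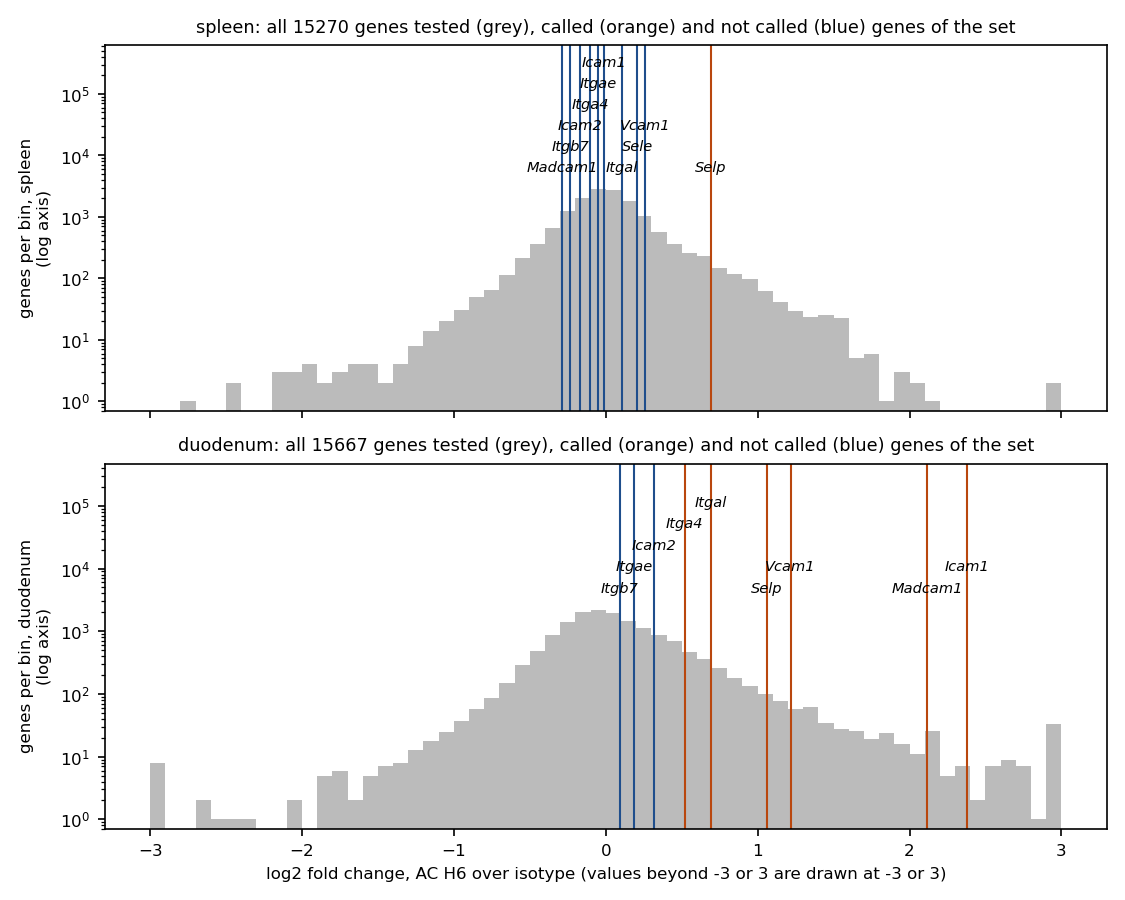
Histograms of the log2 fold change with AC H6 over isotype for all genes tested in spleen (top) and duodenum (bottom), with genes per bin on a log axis and lines for the members, orange where called and blue where not; values beyond -3 or 3 are drawn at the limit. Madcam1 and Icam1 lie at 2.12 and 2.38 in duodenum and at -0.29 and -0.01 in spleen.

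Between the tissues with isotype, 9 members were lower in duodenum than in spleen and 1 was higher, where 86.0% of 16029 genes passed, 43.8% lower and 42.2% higher. Itgal was 33.7-fold lower, Vcam1 26.7-fold, Itga4 21.9-fold, Itgb7 20.1-fold, Icam2 13.3-fold, Icam1 9.74-fold, Sele 9.07-fold, Madcam1 6.13-fold and Selp 4.06-fold. Itgae was 1.35-fold higher (log2 0.44 ± 0.10 SE, edgeR adjusted p = 0.00352), but 0.17 on the log2 scale with upper quartile scaling (adjusted p = 0.163), a scaling that moved the median of all genes from -0.05 to -0.32. With AC H6 the ratio of spleen to duodenum mean CPM went from 6.09 to 1.15 for Madcam1 and from 9.57 to 1.85 for Icam1, beside 26.2 and 13.7 for Vcam1 and 4.01 and 3.17 for Selp; these ratios have no test of their own.

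Levels of different genes were compared per kilobase of exon, with the union of all annotated exons as length. The orders below hold for this length, and those that turn with the longest transcript as length are given at the end. In the isotype duodenum the order was Itgae at 3.61 CPM per kb, Itgb7 2.70, Icam1 2.31, Madcam1 1.84, Vcam1 1.82, Icam2 1.55, Itga4 1.16, Itgal 1.14, Selp 0.353 and Sele 0.0498. Among neighbours in this order, the libraries of Itgb7 and Icam1, Madcam1 and Vcam1, Vcam1 and Icam2, and Itga4 and Itgal overlapped. After AC H6 the order opened with Icam1 at 11.8, Madcam1 at 7.94 and Vcam1 at 4.15 CPM per kb, ahead of Itgae at 4.05, Itgb7 at 2.84, Icam2 at 1.92, Itgal at 1.82, Itga4 at 1.64, Selp at 0.725 and Sele at 0.0586. Here Vcam1 and Itgae, Icam2 and Itgal, and Itgal and Itga4 overlapped. In the isotype spleen Itgb7 led at 53.3 CPM per kb, before Vcam1 47.6, Itgal 37.9, Itga4 25.03, Icam1 22.2, Icam2 20.5, Madcam1 11.2, Itgae 2.63, Selp 1.42 and Sele 0.479, with no overlap between neighbours. With AC H6 the spleen order was Vcam1 56.7, Itgb7 45.3, Itgal 40.7, Itga4 23.3, Icam1 21.9, Icam2 18.2, Madcam1 9.13, Itgae 2.52, Selp 2.296 and Sele 0.535, and the pairs Itgb7 and Itgal, Itga4 and Icam1, and Itgae and Selp overlapped. With the longest transcript as length, Vcam1 led the isotype spleen at 103 CPM per kb, before Itgb7 at 55.02, and with AC H6 Itgal (51.2) passed Itgb7 (46.7). In both spleen groups Icam1 then ranked above Itga4, at 38.1 and 35.8 CPM per kb with isotype and 37.7 and 33.3 with AC H6. In the isotype duodenum Itgae stayed first at 4.30 CPM per kb, followed by Icam1 3.98, Vcam1 3.94, Itgb7 2.78, Icam2 2.31 and Madcam1 1.84, so that Madcam1 went from rank 4 to rank 6. In the duodenum with AC H6 Icam1 stayed first at 20.4 CPM per kb, while Vcam1 (9.01) passed Madcam1 (7.94) and Itga4 (2.34) passed Itgal (2.28).

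**Figure D5:**
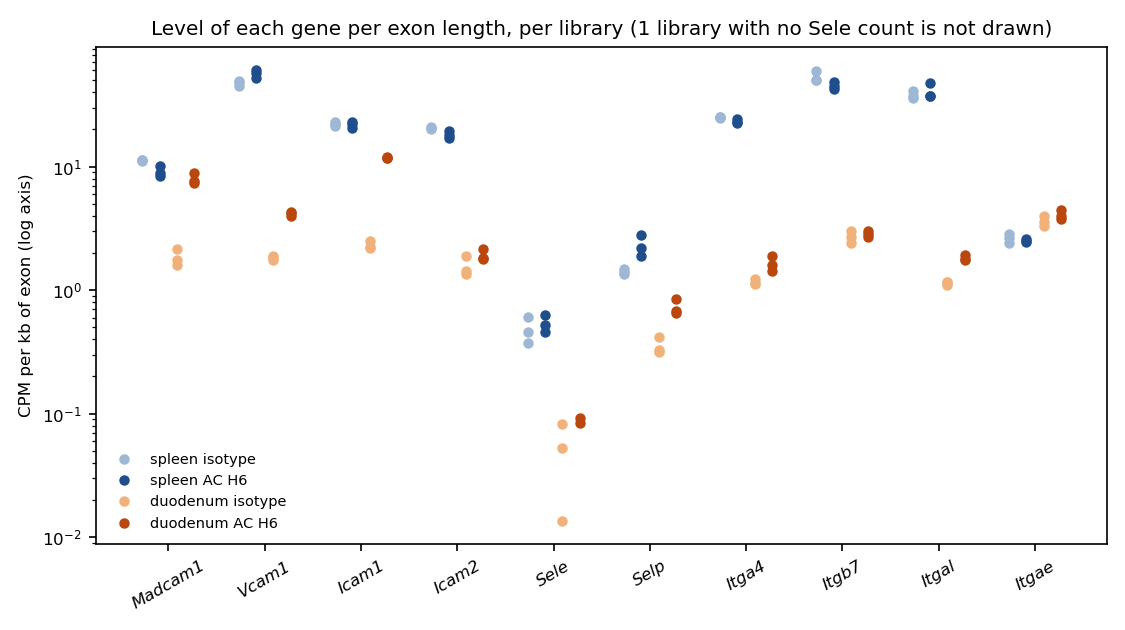
CPM per kilobase of exon of the members in the 4 groups, on a log axis; each point is a library, and a library with no Sele count is not drawn. By group mean Icam1 and Madcam1 stand at 11.8 and 7.94 in duodenum with AC H6, and Itgb7 at 53.3 and Vcam1 at 47.6 in spleen with isotype, an order that turns (55.02 and 103) with the longest transcript as length.

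Of 13 partner and related integrin chains, 8 were higher in the duodenum, 0 lower and 5 did not pass, with a median of 0.45. Itgb2, the beta chain of LFA-1, rose from 16.4 to 28.6 CPM (log2 0.82 ± 0.06 SE, edgeR adjusted p = 7.05e-05), and Itgax, a myeloid and dendritic cell chain, from 21.5 to 40.8 CPM (log2 0.95 ± 0.06 SE, adjusted p = 2.40e-05). Itgb1, the other partner of Itga4, chosen after its value was seen, stood at 355 and 334 CPM (log2 -0.06 ± 0.06 SE, adjusted p = 0.417). In the spleen 3 of 12 passed, all higher, led by Itgam, the chain of Mac-1 (log2 0.85 ± 0.07 SE, edgeR adjusted p = 0.00822). The others were Itga2b (log2 0.65 ± 0.13 SE, edgeR adjusted p = 0.0411) and Itgb3 (log2 0.43 ± 0.09 SE, edgeR adjusted p = 0.0494). Itga2b is also counted among the platelet markers above. Beside Itgam, 9 of 10 neutrophil markers were higher in spleen, with sums of 513 to 782 CPM and 1507 to 2147 CPM. The part of neutrophils and platelets in the result was not tested. Of 12 integrin activation genes, which carry signals from receptors to the integrin tail, 6 were higher in duodenum and none lower, with a median of 0.20 (Apbb1ip, log2 1.26 ± 0.11 SE; Fermt3, 0.76 ± 0.09 SE), and in spleen only Skap1 passed, as lower.

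The other adhesion ligands gave a mixed result in duodenum, with 6 higher, 3 lower and 7 not passing of 16, and a median of 0.19. Of the genes called, Pecam1, Cdh5 and Emcn are also counted among the blood endothelium markers above. In spleen 2 of 18 were higher (Thbs1 and Jam3) and 1 lower (Mcam). Pecam1, an endothelial junction protein, rose from 39.1 to 60.0 CPM, whereas Fn1, fibronectin, fell by 0.56 ± 0.08 SE on the log2 scale, from 129 to 86.3 CPM. Of 17 selectin ligands and glycan enzymes 8 were higher and 4 lower there, with a median of 0.08, and Fut7, the fucosyltransferase that completes selectin ligands, rose from 0.303 to 1.84 CPM (log2 2.69 ± 0.35 SE, edgeR adjusted p = 8.97e-04). Fut7 had only 9, 5 and 7 counts in the duodenum isotype libraries. In spleen 1 of 17 passed, Cd34.

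Homing chemokines and receptors moved in duodenum in 11 of 16 cases upward and 1 downward, with a median of 0.64. Cxcl13, the B cell attractant, rose from 2.12 to 34.8 CPM (log2 4.03 ± 0.16 SE) and Ccl19, the CCR7 ligand, from 0.288 to 2.96 CPM (log2 3.32 ± 0.24 SE). Ccl19 had only 4, 10 and 8 counts in the duodenum isotype libraries. Ccl28, a mucosal chemokine of epithelium, fell by 2.03 ± 0.14 SE on the log2 scale. In spleen none of 14 was higher and 2 were lower, Ccr7 and S1pr1. Of 9 egress and integrin trafficking genes 3 were higher and 2 lower in duodenum, and in spleen S1pr3 and S1pr4 were lower.

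Of 10 NF-kB regulated genes 8 were higher in duodenum (Tnfaip3, Nfkbia, Nfkb2, Relb, Ccl2, Csf1, Birc3 and Traf1). The other 2, Cx3cl1 and Cxcl1, did not pass, and the median was 1.27. Which cells carried these changes was not tested. Nfkb2, the precursor of the alternative pathway's p52, rose from 32.1 to 199 CPM (log2 2.66 ± 0.08 SE, edgeR adjusted p = 4.68e-07). In spleen edgeR's quasi-likelihood test called 0 of these 10, and 0 passed an unadjusted p of 0.05. Of 405 alternatives run for the named genes of these lists and the marker lists in spleen, 145 ended the call. Single spleen genes named here are thus less firmly set than those of the duodenum, where 16 of 639 did. Both totals include genes with no call to lose, at 15 alternatives each: Itgb1 and Itgb2 in spleen, and Itgb1 and Cdh1 in duodenum.

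The 2 genes with the most similar profile to each member over the 12 libraries, by root mean square difference of centred log2 CPM among 16654 others, were as follows. They were Cilp (0.216) and Map3k14 (0.220), which encodes the kinase NIK, for Madcam1, and Gpr176 (0.197) and Serpina3f (0.223) for Icam1. Vcam1 was closest to Lrrc33 (0.112) and Il2rg (0.151), Selp to C1qc (0.173) and C1qb (0.212), Icam2 to Krt80 (0.107) and Slc44a2 (0.115), and Sele, at low counts, to Olr1 (0.400) and Slpi (0.526). For the integrin chains these were Evi2b (0.105) and Slfn8 (0.106) for Itga4, Klf2 (0.123) and Atp10d (0.126) for Itgb7, Dock2 (0.117) and Plxnc1 (0.131) for Itgal, and Lrp6 (0.0901) and Ppp1r12b (0.0942) for Itgae. Both tissues enter these profiles, so the difference between tissues is part of the likeness.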

How the data were processed

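Gene counts of 12 RNA libraries (total RNA of spleen and duodenum, 3 per group) were used as deposited by the authors, as raw counts per gene with no normalization. Per the submitters' processing notes the tools were bcl2fastq 2.19, Trimmomatic, STAR 2.3 and edgeR with build mm10. What program and annotation produced the counts is not given in the sources used here, while the count column is headed as multi-match counts, per the file headers, so reads that match several places may be included. The kit named in the labels does not mark strand, so overlapping antisense genes cannot be told apart. Groups came from the labels' tissue and treatment.

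Counts were scaled by TMM and tested per tissue with edgeR 4.0.16 (quasi-likelihood, R 4.3.3) after edgeR's filter on low counts, with Benjamini-Hochberg adjustment over all genes tested and a threshold of 0.05. Treatment effects were compared between tissues by an interaction term. The fits were tested on simulated data. The members and lists were chosen with earlier results of these data known. The named genes are all 10 members, up to 3 genes of smallest p in each list and tissue, and the 2 nearest genes of each member. Alternatives were other scalings, filters, DESeq2 1.42.0, limma-voom (limma 3.58.1), 1 fit of all 12 libraries, a replicate block, libraries without the most abundant gene groups, each library left out and the longest transcript as length. Gene positions and exon lengths (union of exons) came from the GENCODE annotation of GRCm38, and promoters from RefSeq on GRCm38.p6. Count totals limit precision for Sele, and for Fut7 and Ccl19 in the isotype duodenum.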

Additional observations from a re-analysis of the deposited data

Results flagged for a closer look

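For 5 members the change with AC H6 differed between tissues by the interaction test, as duodenum log2 change minus spleen log2 change, with edgeR's quasi-likelihood test and Benjamini-Hochberg adjustment. The differences were 2.37 for Icam1 (adjusted p = 2.28e-08), 2.39 for Madcam1 (2.87e-06), 0.94 for Vcam1 (5.13e-05), 0.60 for Itga4 (0.00509) and 0.56 for Itgal (0.0104). All 3 duodenum AC H6 libraries lay above all 3 duodenum isotype libraries for each of these 5 genes. They had also passed the duodenum test, so this separation adds no further support. The share of all genes without overlap is not given here. Groups of 3 libraries are too small to test for a library that stands apart.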

How the results depend on the processing

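The 6 duodenum calls were kept under every alternative run (15 for each gene, and 14 for Selp, which the stricter filter removed). In the spleen the count of members called was 0 with upper quartile scaling, the stricter filter, limma-voom and the replicate block, and 2 (Selp and Vcam1) with DESeq2 and with 1 fit of all 12 libraries; the cause was not tested. Leaving out 1 library gave 0 to 2 members and 14 to 1132 genes called there, namely 14, 68 and 104 genes without isotype library 1, 2 and 3, and 76, 1132 and 30 without AC H6 library 1, 2 and 3. DESeq2 called 1356 spleen genes and the fit of all 12 libraries 1390, beside 608. Over all comparisons 611 of 641 alternatives for members kept direction and side of the threshold, 11 lost and 9 gained the call, and 10 turned direction.

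The direction of values near 0 turned in the spleen: Icam1 to 0.01 without isotype library 2 and 0.03 (0.0254) without AC H6 library 1, Itgae to 0.01 (0.0146) without isotype library 3, and Itgal to -0.01 (-0.0114) without AC H6 library 2. With 1 library left out these values ran from -0.0496 to 0.0254 for Icam1, -0.120 to 0.0146 for Itgae and -0.0114 to 0.170 for Itgal. The interaction of Sele turned to -0.47 with limma-voom and, over the libraries left out, ran from -0.370 to 0.790, below 0 in 5 cases (-0.37, -0.31, -0.22, -0.04 and -0.03). The interaction of Itgal lost its call with limma-voom (adjusted p = 0.0506), and that of Icam2 gained one in 5 of 21 alternatives. Of 405 alternatives for the other named spleen genes 145 lost the call, beside 16 of 639 in duodenum. Both totals include genes that had no call (Itgb1 and Itgb2 in spleen, Itgb1 and Cdh1 in duodenum).

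Within a tissue the replicate numbers did not meet the criterion for pairing (every correlation above 0.1): deviations of same-numbered isotype and AC H6 libraries correlated at 0.263, -0.128 and -0.031 in spleen and 0.403, 0.242 and -0.201 in duodenum. With the replicate block, 1 gene and 0 members were called in spleen and 5421 genes in duodenum, with the 6 members kept there. Between tissues, same-numbered libraries correlated at 0.131, 0.317 and 0.0948 with isotype and 0.109, 0.0961 and -0.127 with AC H6, also short of the criterion. Every isotype library correlated best with its own number in the other tissue, a hint from the data and not the design. With AC H6 this did not hold: spleen library 2 correlated best with duodenum library 3 (0.198) and spleen library 3 with duodenum library 1 (0.135). A replicate block shared by the tissues within each treatment, chosen after seeing the data, called 3082 genes and 6 members in the interaction, the 5 named before and Itgb7 (log2 0.31, adjusted p = 0.0309 in edgeR, range over its alternatives 0.0309 to 0.258).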
